A study of Mus musculus with 8 samples.

Results

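The hypoxia-inducible factor (HIF) pathway was described in the ventricles of mice 24 hours after myocardial infarction (MI) through 10 genes: Hif1a, Epas1, Egln1, Egln3, Vegfa, Adm, Ankrd37, Ndrg1, P4ha1 and P4ha2. The members were chosen by name, each through the brightest probe that carries a RefSeq transcript of the gene and was well above background on at least 4 of 8 arrays. All 10 genes were found, of 15146 genes with such a probe. Every member was well above background on all 8 arrays, and none was saturated.

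Male C57BL\6 mice underwent permanent ligation of the anterior interventricular artery (MI, n = 4) or the same surgery with no vessel tied (sham, n = 4). RNA of the ventricles of each mouse was labeled with Cy3 and hybridized to 1 array of a mouse whole-transcriptome design. The design compares the infarcted heart with the heart after sham surgery at this time point. The scanner software found 58.6% to 66.4% of spots well above background, depending on the array, and correlations between arrays of the same group were 0.990 to 0.995 in MI mice and 0.990 to 0.992 in sham-operated mice. Signals are given on a log2 scale after the spike-in calibration of the authors, and a difference of 1 is a 2-fold change. Genes with a change of more than 2-fold and a p below 0.05 in limma, after Benjamini-Hochberg adjustment over the 34038 retained probes, are called higher or lower.

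When oxygen is plentiful, prolyl hydroxylases of the EGLN family hydroxylate the alpha subunits of HIF, and the von Hippel-Lindau protein marks them for degradation. When oxygen falls, the alpha subunits accumulate, pair with ARNT and bind short DNA elements near genes for glucose transport, glycolysis, vessel growth and matrix assembly. The alpha subunits are regulated mainly as proteins, which arrays do not measure.

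The DNA element recognized by HIF contains the letters ACGTG or GCGTG. Both were searched on both strands in the 250 bases before the start of each gene, taken from RefSeq (GRCm38.p6), where 8 of the 10 genes (all but Epas1 and Ndrg1) were matched. The windows of 3 genes that rose in MI mice and of 2 genes that were not called are printed so that they can be compared, with each match in capitals (CACGT and CACGC are matches on the opposite strand).

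Ankrd37 (chr8:45999851-46000100, minus strand): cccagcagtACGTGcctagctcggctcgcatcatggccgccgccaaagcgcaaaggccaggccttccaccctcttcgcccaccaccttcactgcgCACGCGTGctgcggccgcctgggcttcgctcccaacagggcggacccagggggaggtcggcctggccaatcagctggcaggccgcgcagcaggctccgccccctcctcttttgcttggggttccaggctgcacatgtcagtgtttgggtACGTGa
Egln3 (chr12:54203875-54204124, minus strand): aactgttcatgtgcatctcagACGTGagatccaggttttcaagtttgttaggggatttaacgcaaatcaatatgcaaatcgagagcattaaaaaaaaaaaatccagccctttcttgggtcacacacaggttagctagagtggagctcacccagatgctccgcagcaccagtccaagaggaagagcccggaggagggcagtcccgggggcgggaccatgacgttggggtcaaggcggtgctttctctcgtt
Adm (chr7:110627407-110627656, plus strand): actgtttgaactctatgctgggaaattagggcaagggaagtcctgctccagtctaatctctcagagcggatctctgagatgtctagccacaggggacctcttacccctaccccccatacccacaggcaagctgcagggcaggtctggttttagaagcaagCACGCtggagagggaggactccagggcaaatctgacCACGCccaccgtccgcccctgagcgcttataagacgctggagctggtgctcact
P4ha1 (chr10:59323046-59323295, plus strand): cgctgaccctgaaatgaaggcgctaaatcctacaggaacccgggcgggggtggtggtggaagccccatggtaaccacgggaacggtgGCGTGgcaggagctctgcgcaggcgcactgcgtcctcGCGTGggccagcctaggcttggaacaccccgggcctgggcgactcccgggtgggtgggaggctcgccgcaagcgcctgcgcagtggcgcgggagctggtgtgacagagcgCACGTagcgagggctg
P4ha2 (chr11:54100674-54100923, plus strand): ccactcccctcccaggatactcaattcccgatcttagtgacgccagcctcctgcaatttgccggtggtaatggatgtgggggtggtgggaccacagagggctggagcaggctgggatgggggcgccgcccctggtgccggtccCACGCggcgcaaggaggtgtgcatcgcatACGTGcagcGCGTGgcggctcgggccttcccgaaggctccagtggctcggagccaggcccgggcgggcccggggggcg

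Of 32851 promoter windows of the same length, 16.6% held ACGTG, 28.2% held GCGTG and 38.6% held at least 1 of them. The first window of 7 of the 8 members held a match, and 6 of these held ACGTG. The member without a match there was Vegfa, which was not called, and a second window of Vegfa held 2 matches. Ankrd37 had 4 matches, 2 of ACGTG and 2 of GCGTG, and its GCGTG matches overlap on opposite strands. Adm had 2 matches of GCGTG and Egln3 had 1 of ACGTG. P4ha1 and P4ha2 had 3 matches each. A match describes these letters and does not show binding.

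Of the 10 members, 3 were called higher in MI mice and 0 lower, beside 3.48% of all retained probes called (3.07% higher and 0.405% lower). The 3 were Ankrd37, Egln3 and Adm, with fold changes of 5.35, 3.36 and 2.64. At any fold, the same 3 members passed the adjusted p, beside 7.61% of all retained probes. Before adjustment, 5 members had an unadjusted p under 0.05 in limma, all higher in MI mice, beside 6778 of the 34038 retained probes in either direction. The median log2 fold change was 0.44 over the members and 0.12 over all retained probes. A log2 fold change above 0 was found for 7 of the 10 members and for 22102 of the 34038 retained probes. The groups did not overlap for 4 members, the 3 above and Ndrg1, beside 11.2% of all retained probes. Each of these 4 reached 0.0286 in an exact permutation test (two-sided, on group means), the lowest p possible with 4 mice in each group.

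**Figure D1:**
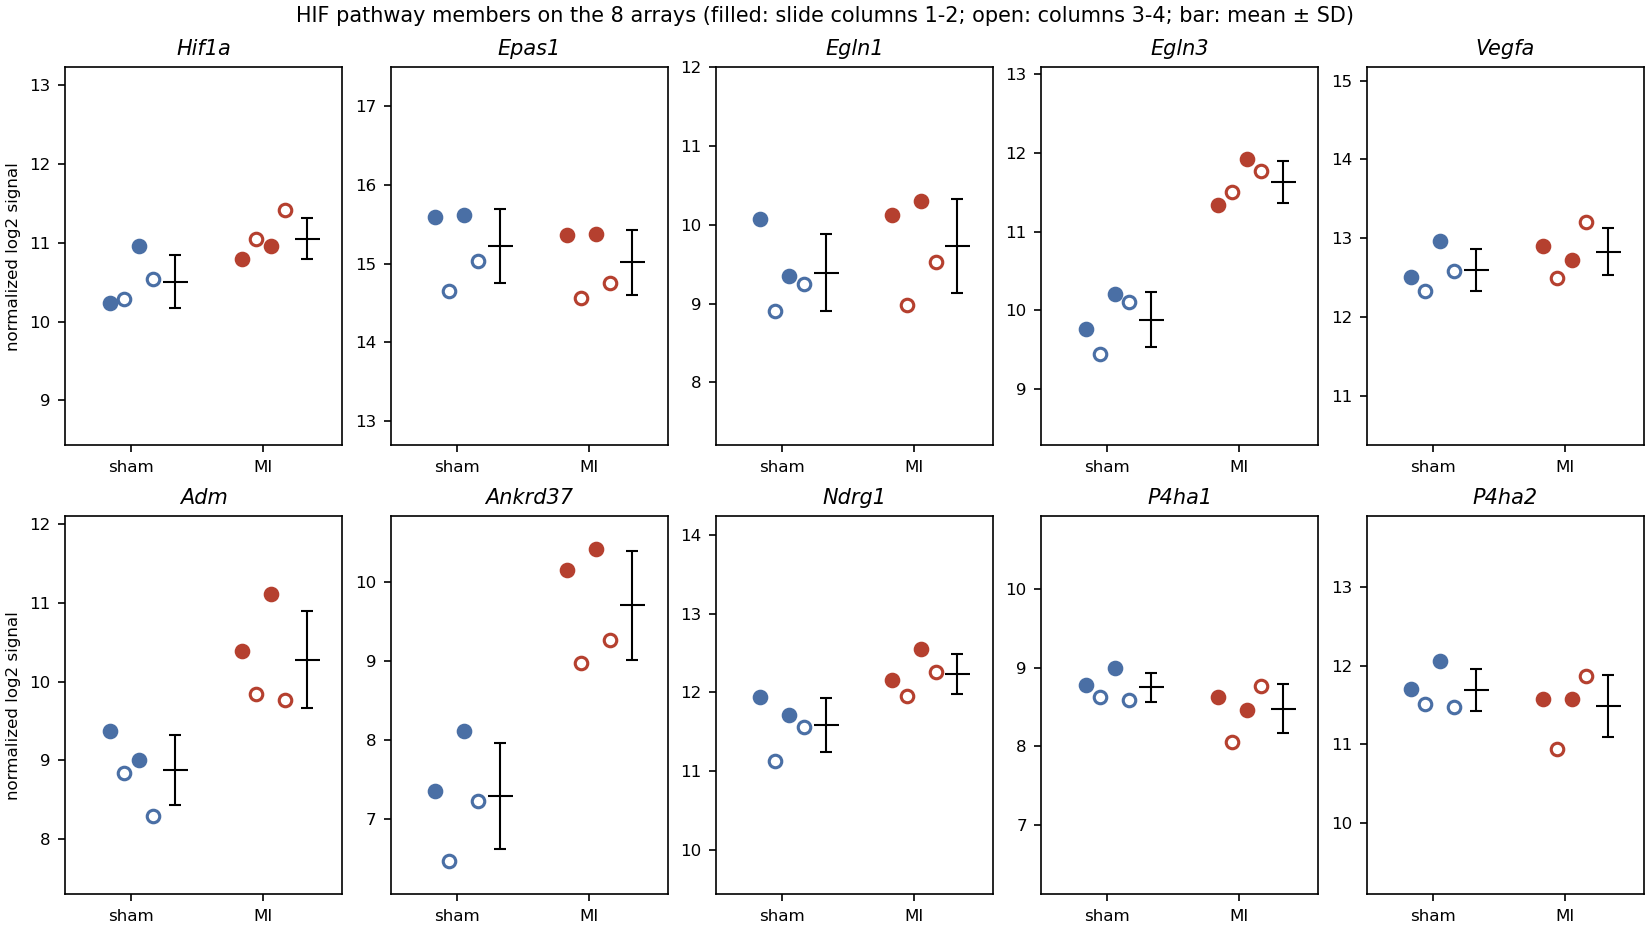
Normalized log2 signal of each of the 10 genes on the 8 arrays, with sham-operated mice in blue, MI mice in red, and the mean and SD (n = 4) as bars; filled points are arrays in slide columns 1 and 2, open points those in columns 3 and 4. Every axis spans the same number of log2 units, and the groups are separate for Egln3, Adm, Ankrd37 and Ndrg1.

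The factors themselves were measured first. Hif1a (NM_010431), which encodes the widely expressed alpha subunit, had log2 signals of 10.24, 10.28, 10.96 and 10.55 in sham-operated mice 1 to 4 and of 10.79, 11.04, 10.97 and 11.42 in MI mice 1 to 4. The third sham-operated mouse lay above the first MI mouse and just below the third, so the groups overlapped. The fold change was 1.46 (95% confidence interval 1.07 to 2.00, unadjusted), with an adjusted p of 0.144 in limma. Epas1 (NM_010137), the alpha subunit that is abundant in endothelium, had signals of 15.59, 14.65, 15.62 and 15.04 in sham-operated mice and of 15.37, 14.56, 15.37 and 14.76 in MI mice. The ranges of the groups overlapped almost wholly, and the fold change was 0.865 (interval 0.609 to 1.23, adjusted p = 0.705 in limma). The other retained probes of Epas1 gave log2 fold changes of 0.10 and 0.15 (adjusted p of 0.861 and 0.765 in limma), so the sign of this small difference depended on the probe.

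A factor that scales all signals of an array cancels in the ratio of 2 genes, but a constant added to them does not. The log2 ratio of Hif1a over Epas1 averaged -4.72 ± 0.44 (SD, n = 4) in sham-operated mice and -3.96 ± 0.62 (SD, n = 4) in MI mice, a difference of 0.76 that compares the changes of the genes and not their levels. The groups overlapped, and the exact permutation p was 0.143 (0.214 adjusted over 3 ratios).

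Of the oxygen sensors, Egln3 was called and Egln1 was not. Egln1 (NM_053207), the prolyl hydroxylase that sets HIF levels in most cells, had log2 signals of 10.08, 8.90, 9.36 and 9.24 in sham-operated mice and of 10.13, 8.98, 10.30 and 9.53 in MI mice. Both groups spanned more than 1 unit and overlapped over nearly their whole range. The fold change was 1.27 (interval 0.861 to 1.86, adjusted p = 0.535 in limma). Egln3 (NM_028133), a prolyl hydroxylase that is itself a HIF target, had signals of 9.76, 9.45, 10.21 and 10.11 in sham-operated mice and of 11.33, 11.50, 11.92 and 11.76 in MI mice. The lowest MI mouse lay 1.1 above the highest sham-operated mouse. The log2 fold change was 1.75 ± 0.22 (SE), with an adjusted p of 3.46e-06 in limma. A second retained probe of Egln3 gave 1.87 ± 0.21 (SE), with an adjusted p of 6.06e-07 in limma and separate groups.

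The log2 ratio of Egln3 over Egln1 was -0.32, 0.55, 0.85 and 0.86 in sham-operated mice and 1.21, 2.52, 1.62 and 2.23 in MI mice. All MI mice lay above all sham-operated mice, and the ratio was 2.66-fold higher in MI mice. As a test of whether the 2 sensors changed unequally, the exact permutation p of 0.0286 became 0.0857 after adjustment over the 3 ratios. It is the lowest p that 4 mice in each group allow, so even separate groups could not pass 0.05 here unless another ratio also reached it.

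**Figure D2:**
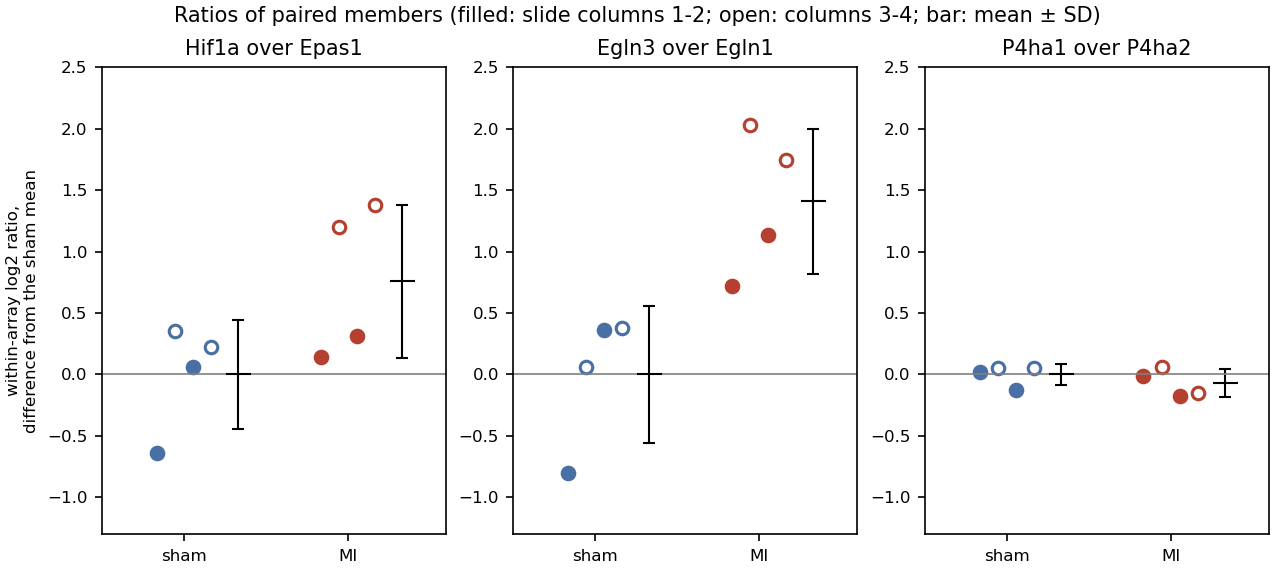
Within-array log2 ratio of paired members, shown as the difference from the mean of the sham-operated mice (blue, n = 4) for sham-operated and MI mice (red, n = 4), with mean and SD as bars; filled points are slide columns 1 and 2, open points columns 3 and 4. The groups are separate for Egln3 over Egln1, with a difference of 1.41, and overlap for the other ratios.

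Of the secreted targets, Adm was called and Vegfa was not. Vegfa (NM_001025250), the main growth factor of blood vessels, had log2 signals of 12.50, 12.33, 12.97 and 12.58 in sham-operated mice and of 12.90, 12.50, 12.72 and 13.21 in MI mice. The groups overlapped, and the fold change was 1.18 (interval 0.864 to 1.61, adjusted p = 0.605 in limma). A probe of another Vegfa transcript (NM_001025257) gave a log2 fold change of 0.45 (adjusted p = 0.301 in limma) with overlapping groups. Adm (NM_009627), the precursor of the vasodilator peptide adrenomedullin, had signals of 9.37, 8.83, 9.003 and 8.30 in sham-operated mice and of 10.39, 9.84, 11.10 and 9.77 in MI mice. The groups were separate by 0.40, and the third MI mouse was the highest. The log2 fold change was 1.40 ± 0.27 (SE), with an adjusted p of 0.000873 in limma. This call was lost under an own refit of the vsn model (log2 fold change 1.11, adjusted p = 0.0611 in limma). It held in limma without any single mouse (log2 fold change 1.13 to 1.57).

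The intracellular targets both had separate groups. Ankrd37 (NM_001039562), an ankyrin repeat protein known as a direct HIF target, had log2 signals of 7.35, 6.46, 8.11 and 7.23 in sham-operated mice and of 10.16, 8.98, 10.42 and 9.27 in MI mice. The lowest MI mouse lay 0.87 above the highest sham-operated mouse. Its log2 fold change of 2.42 ± 0.30 (SE; adjusted p = 3.24e-06 in limma) was the largest of the 10 members, and it was 1.55 under the own refit of the vsn model (adjusted p = 0.0199 in limma). When variances were not moderated across probes, the adjusted p of Ankrd37 was 0.0758 and that of Adm 0.156, so neither was called, and Egln3 was. Ndrg1 (NM_008681), a stress-responsive gene often used as a marker of hypoxia in tumors, had signals of 11.94, 11.12, 11.71 and 11.56 in sham-operated mice and of 12.16, 11.95, 12.55 and 12.26 in MI mice. The groups were separate by only 0.01. The fold change was 1.57 (interval 1.14 to 2.14) and the adjusted p in limma was 0.0742, so Ndrg1 was not called. With each array scaled to its 75th percentile, the adjusted p of Ndrg1 in limma was 0.0225, with a log2 fold change of 0.53 that stayed below the 2-fold threshold. Ndrg1 also passed in limma, below 2-fold, with quantile normalization (adjusted p = 0.0179), normexp background correction (0.00462) and slide columns as a block (0.0216). It did not pass with the spike-in shift alone (0.154) or the own refit of the vsn model (0.0959).

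P4ha1 and P4ha2 encode catalytic subunits of the prolyl hydroxylase that stabilizes collagen. P4ha1 (NM_011030) had log2 signals of 8.78, 8.63, 8.99 and 8.59 in sham-operated mice and of 8.63, 8.06, 8.46 and 8.77 in MI mice. The groups overlapped, with a fold change of 0.830 (interval 0.612 to 1.12, adjusted p = 0.533 in limma), and a second probe gave a log2 fold change of -0.09 (adjusted p = 0.869 in limma). P4ha2 (NM_011031) had signals of 11.70, 11.51, 12.06 and 11.48 in sham-operated mice and of 11.58, 10.94, 11.58 and 11.86 in MI mice. Its groups also overlapped, with a fold change of 0.871 (interval 0.631 to 1.20, adjusted p = 0.689 in limma). The log2 ratio of P4ha1 over P4ha2 was -2.94 ± 0.09 (SD, n = 4) in sham-operated mice and -3.01 ± 0.11 (SD, n = 4) in MI mice, a difference of -0.07 (exact permutation p = 0.286, adjusted 0.286), and this small difference changed sign under 2 of the alternatives.

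**Figure D3:**
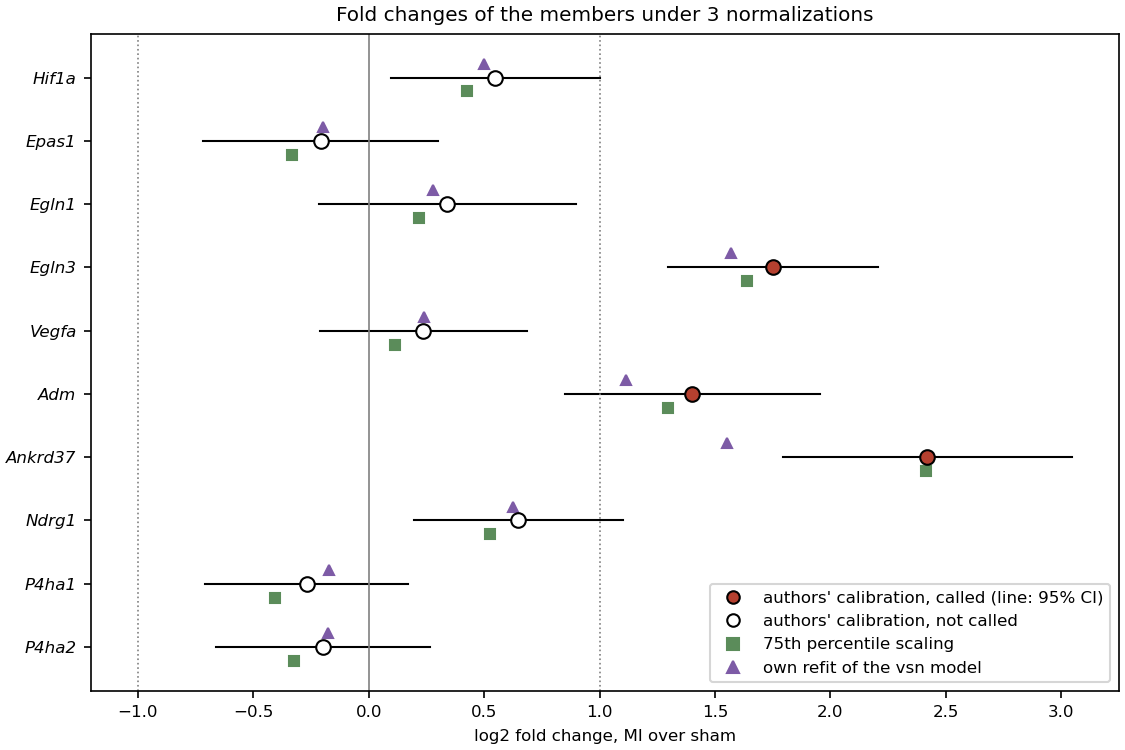
Log2 fold change of MI over sham-operated mice (n = 4 each) for the 10 genes, as circles with the 95% confidence interval of limma under the calibration of the authors, squares under scaling to the 75th percentile and triangles under the own refit of the vsn model; dotted lines mark a 2-fold change. Ankrd37, Egln3 and Adm (red) lie beyond 1 under each of the 3 normalizations, and the triangle of Ankrd37 lies at 1.55 beside a circle at 2.42.

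The position on the slide moved with some of these values. The 8 arrays lay on 1 slide, in 2 rows of 4 columns, with each group equally divided between rows and between columns 1 and 2 and columns 3 and 4. In both groups, the arrays of columns 1 and 2 were above those of columns 3 and 4 for 4 of the 10 members, Epas1, Egln1, Adm and Ankrd37, as for 32.6% of all retained probes. Epas1 was at 15.37 to 15.62 on the former arrays and at 14.56 to 15.04 on the latter. With scaling to the 75th percentile, 1 member (Epas1) and 6.81% of all retained probes showed this order. Within columns 1 and 2 the log2 fold changes of Ankrd37, Egln3 and Adm were 2.56, 1.65 and 1.56, and within columns 3 and 4 they were 2.28, 1.85 and 1.24. The 3 genes were thus higher in MI mice in either part of the slide by over 2-fold, though within columns 1 and 2 none of them passed an adjusted p of 0.05 in limma, with 2 mice per group. The columns cannot be told apart from the replicate numbers.

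The genes whose pattern over the 8 arrays was most like that of Ankrd37 were found among 14023 genes, each centred on its own mean. Phlda1 differed from Ankrd37 by a root mean square of 0.406 on the log2 scale, Pgf by 0.411, Ier3 by 0.420, Bcr by 0.426 and Slc16a3 by 0.430. Their log2 fold changes were 2.05, 2.44, 2.47, 2.76 and 2.69. Pgf (placental growth factor) and Slc16a3 (a lactate exporter) were also in the lists of HIF targets described next. The ranking favors genes with a large rise in MI mice, so this is not separate evidence about the pathway.

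Other genes of the pathway, together with collagen genes and receptors and relatives of the members, were counted in 5 lists that held 96 measured genes. Of these, 15 were called higher in MI mice and 0 lower, which is 15.6%, beside 3.07% of all retained probes called higher. The 10 members were not in these lists. With scaling to the 75th percentile and with quantile normalization, 1 gene of the lists, Ccng2, was called lower.

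The oxygen sensing list held the partners of the factors and the machinery that degrades them, and none of its 14 measured genes passed an adjusted p of 0.05 in limma. Its median log2 fold change was 0.00. Vhl, the substrate receptor for hydroxylated HIF, was at 9.85 ± 0.30 (SD, n = 4) in sham-operated mice and 9.87 ± 0.34 (SD, n = 4) in MI mice. Arnt, the shared beta subunit, was at 10.95 ± 0.31 and 10.72 ± 0.19, with a log2 fold change of -0.23 (adjusted p = 0.600 in limma). Egln2, the third sensor, had a log2 fold change of 0.21 (adjusted p = 0.660 in limma). Cited2, which competes with HIF for its coactivators, had 0.85 (adjusted p = 0.156 in limma) and passed as higher when slide columns 1 and 2 against 3 and 4 were fitted as a block (adjusted p = 0.0215 in limma). It was called without the fourth MI mouse, at 1.07 (adjusted p = 0.0287 in limma), and without the first sham-operated mouse, at 1.21 (adjusted p = 0.0128 in limma). Hif3a, another alpha subunit, had -0.44 (adjusted p = 0.264 in limma) and passed as lower with scaling to the 75th percentile, at -0.59 (adjusted p = 0.0254 in limma).

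Of 19 glycolytic targets, 4 were called higher and 0 lower, and 8 passed the adjusted p at any fold, all higher, beside 6.3% of all retained probes that passed it as higher and 1.31% as lower. The median log2 fold change of the list was 0.59, and 18 of the 19 were above 0, beside 22102 of the 34038 retained probes. The 4 called genes carry sugar and lactate across the membrane or drive glycolysis. Slc16a3, the lactate exporter, had log2 signals of 9.93, 9.10, 10.38 and 9.58 in sham-operated mice and of 12.12, 12.20, 12.86 and 12.56 in MI mice. Its groups were far apart, with a log2 fold change of 2.69 ± 0.25 (SE; adjusted p = 2.26e-08 in limma). Slc2a1, the basal glucose transporter, rose by 1.76 ± 0.22 (SE) on the log2 scale, Pfkfb3, which makes an activator of glycolysis, by 1.31 ± 0.23, and Slc2a3, a high-affinity glucose transporter, by 1.25 ± 0.23. The enzymes Aldoc, Pgam1, Eno1 and Pkm passed the adjusted p with log2 fold changes of 0.85, 0.84, 0.83 and 0.72, below the 2-fold threshold. Ldha, which makes lactate from pyruvate, had a log2 fold change of 0.26 (adjusted p = 0.545 in limma), and Pdk1, which restrains the entry of pyruvate into mitochondria, had -0.09 (adjusted p = 0.883 in limma).

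Of 34 other HIF targets, 9 were called higher and 0 lower. At any fold, 11 passed the adjusted p as higher and 1 as lower, and the median log2 fold change of the list was 0.33. The 11 include Stc1, which was well above background on the arrays of MI mice alone and was retained only through them. Pgf, a relative of Vegfa, had a log2 fold change of 2.44 ± 0.26 (SE), and Hmox1, which degrades heme, had 2.20 ± 0.25. Angptl4, which inhibits lipoprotein lipase, followed with 2.04 ± 0.37 and Car9, a carbonic anhydrase, with 1.93 ± 0.23. The adjusted p of these genes in limma was between 2.13e-07 and 0.000450, and their groups did not overlap. The other 5 called genes were Tfrc, Igfbp3, Ero1a, Lox and Cxcr4, with log2 fold changes of 1.78, 1.67, 1.42, 1.40 and 1.18. Under the own refit of the vsn model, Angptl4 no longer passed the adjusted p (0.0832 in limma), and Car9, Ero1a, Lox, Cxcr4 and Slc2a3 were below 2-fold, with log2 fold changes of 0.58, 0.73, 0.69, 0.50 and 0.70. The gene that passed as lower was Ccng2, a cyclin-related gene, at -0.77 (adjusted p = 0.0425 in limma). Bnip3, a mitophagy gene induced by HIF in many cells, had a log2 fold change of -0.61 (adjusted p = 0.0892 in limma). With scaling to the 75th percentile it passed as lower, at -0.73 (adjusted p = 0.0142 in limma). Ddit4, Vldlr, Narf and Flt1 also passed as lower with that scaling, at -0.87, -0.80, -0.73 and -0.37. Their adjusted p in limma was between 0.00583 and 0.0471. Gbe1 then passed as higher, at 0.46 (adjusted p = 0.0291 in limma), and Plin2 no longer passed. Stc1, a secreted glycoprotein, was not well above background in sham-operated mice, and its groups overlapped. Under the calibration of the authors its mean was at least 1.58-fold higher in MI mice. That bound was set by the dimmest signals well above background. The adjusted p of 0.0110 in limma belongs to the log2 fold change of 0.89 without the bound, and does not test the bound. That fold change rests on signals of sham-operated mice that were not well above background. The log2 fold change of Stc1 was 1.41 with scaling to the 75th percentile (adjusted p = 0.0377 in limma). It was 0.11 under the own refit (adjusted p = 0.528 in limma) and 0.11 with normexp background correction (adjusted p = 0.648 in limma).

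**Figure D4:**
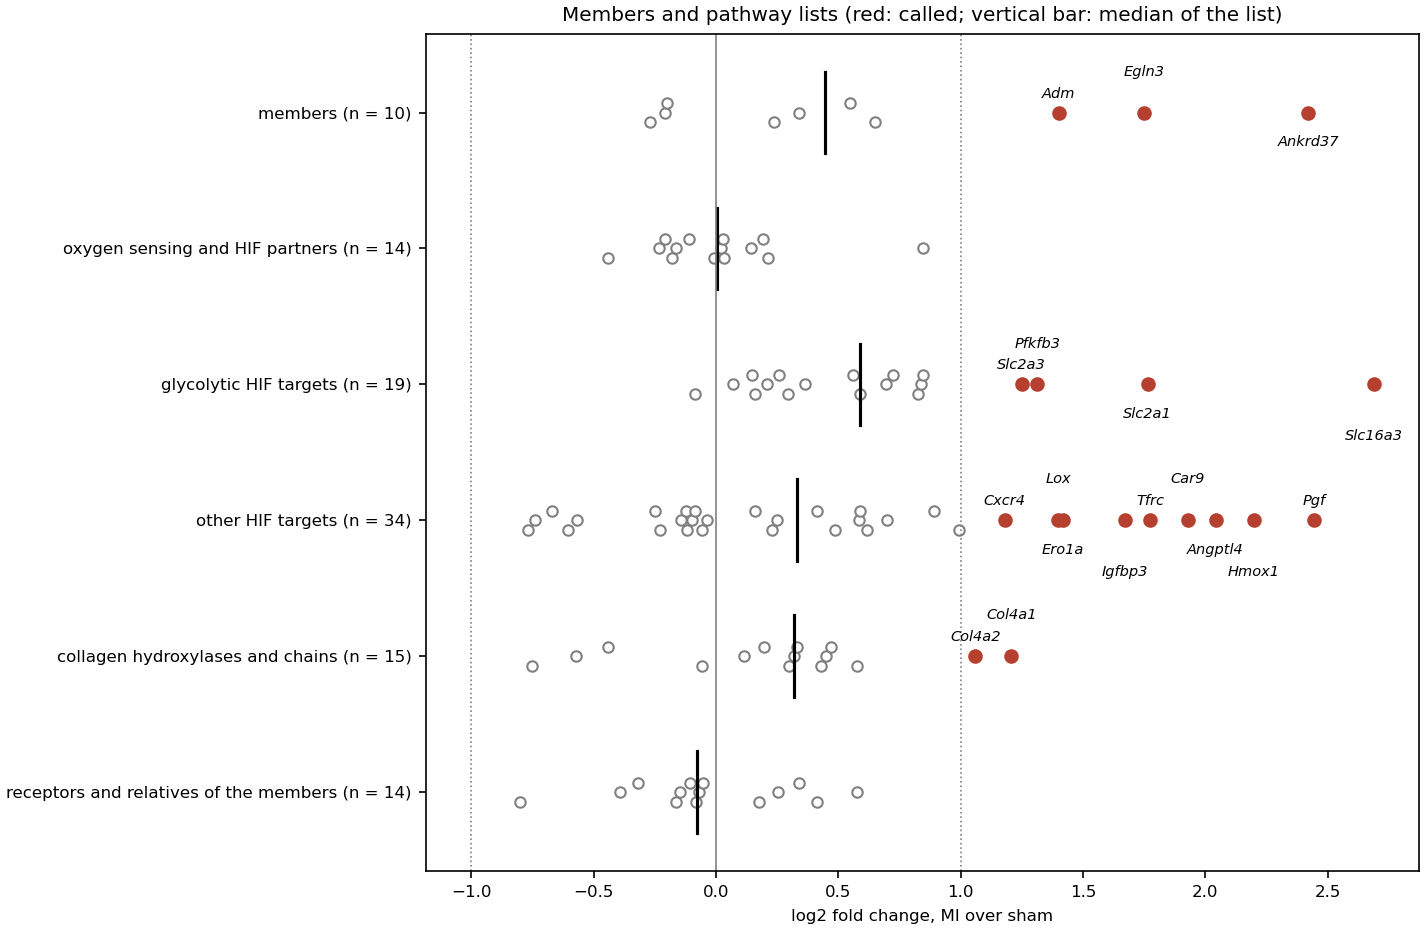
Log2 fold change of MI over sham-operated mice for the 10 members and the measured genes of the 5 lists, 1 point per gene. Called genes are red and named, the median of each list is a vertical bar, and dotted lines mark a 2-fold change. The called genes lie to the right in the members, the glycolytic and other HIF targets and the collagen list, and no gene is called in the oxygen sensing or receptor lists.

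Of 15 collagen hydroxylases and chains, which stand beside P4ha1 and P4ha2, 2 were called higher and 0 lower, and the median log2 fold change of the list was 0.32. They were Col4a1 and Col4a2, the chains of basement membrane collagen, with log2 fold changes of 1.21 ± 0.24 and 1.06 ± 0.24 (SE; adjusted p of 0.00157 and 0.00436 in limma). Col4a2 lay close to the 2-fold threshold and fell below it, at 0.94, with scaling to the 75th percentile. The fibrillar chains Col1a1, Col1a2 and Col3a1 had log2 fold changes of -0.57, -0.44 and -0.75 (adjusted p of 0.251, 0.388 and 0.127 in limma), and without the fourth MI mouse Col3a1 was called lower, at -1.11 (adjusted p = 0.00361 in limma). P4hb, the noncatalytic partner of P4ha1 and P4ha2, had a log2 fold change of 0.45 (adjusted p = 0.230 in limma). Of 14 receptors and relatives of the members, none passed the adjusted p in limma, and the median log2 fold change was -0.08. Vegfd, a lymphatic growth factor, was called lower without the fourth MI mouse, at -1.02 (adjusted p = 0.0126 in limma), against -0.80 with all mice (adjusted p = 0.0815). With all mice, Vegfd passed as lower in limma with scaling to the 75th percentile (-0.97, adjusted p = 0.0424). It also passed with quantile normalization (-0.99, 0.0445) and normexp (-0.81, 0.0131), but not with the spike-in shift alone (-0.84, 0.193) or the own refit (-0.47, 0.335). Kdr, the main receptor of Vegfa, was at 13.96 ± 0.28 (SD, n = 4) in sham-operated mice and 13.80 ± 0.19 (SD, n = 4) in MI mice. Ramp2, which forms the adrenomedullin receptor with Calcrl, was at 13.23 ± 0.34 and 13.17 ± 0.32.

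Among the lists of cell type markers, the neutrophil list held the most called genes. Of 6 measured neutrophil markers, 5 were called higher (S100a8, S100a9, Retnlg, Cxcr2 and Mmp8, but not Csf3r), with a median log2 fold change of 2.92 over the list, and their mean level was 10.46 to 10.80 in sham-operated mice and 12.82 to 13.68 in MI mice. Of 6 markers of monocytes and macrophages, 2 were called higher (Ccr2 and Cd14), as was 1 of 6 markers of smooth muscle cells and pericytes (Acta2). None of 10 cardiomyocyte markers, 8 fibroblast markers, 8 endothelial markers, 3 T cell markers or 3 B cell markers was called, with median log2 fold changes of -0.06, -0.41, 0.20, 0.18 and 0.67. Of the T cell markers, 1 passed the adjusted p as higher, below 2-fold. The B cell markers were dim, with a mean level of 3.84 to 4.91 in sham-operated mice and 4.79 to 5.27 in MI mice. The mean level of the cardiomyocyte markers was 16.66 to 17.40 over all mice, as the tissue label implies. No marker of these lists was called lower. In RNA of whole tissue, fewer cells of a type and less RNA per cell cannot be told apart, and the part of these cells in the changes of Ankrd37, Egln3, Adm and the listed targets was not tested.

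The choice of scale moved the values and the calls. The median log2 fold change of all retained probes was 0.12 under the calibration of the authors and -0.02 with scaling to the 75th percentile, and it was -0.12 with normexp background correction. The calls over all probes were 1046 higher and 138 lower, against 1043 higher and 401 lower with scaling to the 75th percentile and 961 higher and 448 lower with quantile normalization, 421 higher and 101 lower with normexp and 320 higher and 13 lower with the own refit of the vsn model. Each of the 10 members kept the sign of its log2 fold change under every scaling tried.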

How the data were processed

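Total RNA (200 ng) of 8 mouse ventricles was labeled in 1 colour. The intensities that the authors deposited came from Feature Extraction 11.0.1.1, per the file headers, which subtracted local background and did not normalize between arrays. The authors deposited log2 values that were normalized between arrays on spike-in probes with limma and vsn.

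Each array's scale and additive constant were recovered by comparing the intensities with these log2 values (largest misfit 5.02e-09, constants 3.16 to 19.6) and applied to all spots. The own refit of the vsn model gave constants of 166 to 257. Control probes and outlier spots were removed, repeated spots were averaged, and 34038 of 55681 probes were retained. Groups were compared with limma 3.58.1 (R 4.3.3) without covariates. Significance analysis of microarrays, which the authors used, was not run. Confidence intervals are those of limma, unadjusted. The fit was tested on simulated data. Python 3.11.15, numpy 2.4.6, scipy 1.17.1, pandas 2.3.3 and matplotlib 3.10.9 were used for the rest. The number of arrays limits the precision.

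Genes were named through RefSeq accessions of the GRCm38 annotation. Named genes were the 10 members with all their retained probes, up to 4 called genes per list with the largest change, and 5 genes most like Ankrd37; other genes were named after their values were seen. A gene of the lists is not reported here and was left out of their counts. The members and lists were chosen with earlier results of these data known. The alternatives were other normalizations, filters, tests, blocks and probe choices, and each mouse left out in turn; those on slide columns, and values within rows, were chosen after seeing the data.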

Additional observations from a re-analysis of the deposited data

Results flagged for a closer look

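In 56 groups of 4 mice examined over the named genes, 1 held a mouse that stood apart from the others of its group: the third MI mouse for Lox, a collagen crosslinking enzyme, at a log2 signal of 8.52. The other MI mice were at 8.19 to 8.24 and the sham-operated mice at 6.42 to 7.30. Chance alone gives such a mouse in about 1 of 20 groups.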

How the results depend on the processing

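The number of members called higher in MI mice stayed at 3 under all but 4 of the alternatives, leaving out each mouse included (3 to 3). It was 1 (Egln3) with an unmoderated t-test, 2 with the own refit of the vsn model and within slide row 1, and 0 within slide columns 1 and 2, where 1 probe of all retained probes was called; 0 members were called lower throughout. At any fold, 1 member passed the adjusted p with the t-test and 0 within columns 1 and 2. Ndrg1 passed as well with scaling to the 75th percentile, with quantile normalization, with normexp and with slide columns as a block. The unmoderated t-test with a 2-fold threshold, which is not the authors' permutation procedure, gave 3 members before and 1 after the Benjamini-Hochberg adjustment. Of the 96 list genes, 9 were called higher with the own refit, with normexp and with the t-test each, and 0 within columns 1 and 2. Of the list genes, 1 was called lower with scaling to the 75th percentile, with quantile normalization and within row 1, and 0 to 2 were without 1 mouse. Over all probes, calls (1046 higher and 138 lower) were 320 and 13 with the own refit, 421 and 101 with normexp, 571 and 7 with the t-test, 880 and 52 with no filter on detection, 1312 and 204 with the spike-in shift alone, 456 and 67 within row 1, 1294 and 80 within row 2, 1143 and 216 within columns 3 and 4, and 925 to 1321 and 58 to 249 without 1 mouse. The sign turned for P4ha1 over P4ha2 with the own refit (0.0066) and with the mean of all probes of a gene (0.021), and for Epas1 with that mean (0.014). The cause of these differences was not tested.

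Whether replicate numbers pair the mice was not settled: deviations from the group means correlated at 0.24, 0.29 and 0.14 for numbers 1 to 3, which also correlated best with their own number, and at 0.01 for number 4, so the number was not used as a block. With the replicate number as a block, 4 members and 4895 probes passed the adjusted p at any fold in limma, against 2590 probes without it, and 1028 probes were called higher and 127 lower.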
